A study of Mus musculus with 18 samples.

Results

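Axon guidance ligands and receptors were followed across whole brains of 8-day-old mice given lead acetate or saline. The genes were chosen by annotated symbol: those named as a semaphorin, plexin, ephrin, Eph receptor, Slit, Robo, netrin or Unc5 receptor, and Dcc. That rule found 67 genes among the 18194 genes that had a probe set annotated with a single symbol, and each gene was read from its brightest such probe set. Wild-type, heterozygous and Mt-KO pups gave 1 lead and 1 saline pool each, so the study comprised 6 RNA pools on 6 arrays, each pool from 5 pups, with both sexes in the labels.

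All mice were C57BL/6J or on that background after at least 7 generations of backcrossing, and a brother-sister cross gave the +/+, +/- and -/- pups. Pups received 50 mg/kg lead acetate, or the same amount of saline, 2 times on each of postnatal days 7 and 8 with 4 hours between injections, and died 6 hours after the last one. The labels call the knockout Mt-KO and name no deleted exon. With 1 pool for each combination, the spread between pups was not measured, pooled brains hide differences between animals and between sexes, and fewer cells of a type cannot be told apart from less RNA per cell.

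Axon guidance proteins steer growing axons and migrating cells by attraction or repulsion. Semaphorins act through plexins, with neuropilins as co-receptors for the secreted class 3 members. Ephrin-A ligands are held in the membrane by a lipid anchor and ephrin-B ligands span it, and both bind Eph receptor tyrosine kinases on neighbouring cells. Slit proteins repel axons through Robo receptors, whereas netrin-1 attracts through Dcc and repels through Unc5 receptors. In the postnatal rodent brain many of these proteins also act at synapses, on blood vessels and on glia.

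The values are RMA expression values on the log2 scale, so a difference of 1 is a doubling, and levels of different probe sets are not compared. Differences between single pools are stated after taking off the median gene's difference, because the median gene itself differed by -0.18, 0.15 and 0.09 between lead and saline in wild-type, heterozygous and Mt-KO brain. The arrays also differed in how widely their values spread. Over all probe sets the SD was 1.93, 1.91 and 1.90 in the wild-type saline, heterozygous lead and Mt-KO lead pools and 1.83 to 1.84 in the other 3. Mt1 measured 13.17 and 13.30 in wild-type, 12.45 and 12.87 in heterozygous and 11.68 and 11.71 in Mt-KO brain, saline then lead. Xist and Eif2s3y, which track the sexes in a pool, differed most within the Mt-KO pair. Xist was at 12.75 with saline and 10.23 with lead, and Eif2s3y at 6.5 and 11.16. In the wild-type and heterozygous pools Eif2s3y was at 9.45 to 10.45. The sexes were thus unevenly represented in the Mt-KO pools, and the labels give no number of each sex. The part of sex makeup in the differences that use these pools was not tested.

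Of the 67 genes, 54 were bright enough to test, which here means a mean in the upper 60% of all genes, at or above 9.42. Robo4 with a mean of 9.43 lay just inside this limit and Epha1 with 9.35 just outside. The 13 genes below it were Sema3b, Sema3d, Sema3g, Sema5b, Efna1, Epha1, Epha6, Slit3, Robo2, Robo3, Ntn3, Ntn5 and Plxna4os1, a transcript antisense to Plxna4 that the symbol rule also caught. The tested genes were 16 of 20 semaphorins, 9 of 10 plexins, 4 of 5 ephrin-A and all 3 ephrin-B ligands, 7 of 9 EphA receptors, the 4 EphB receptors found (Ephb1, Ephb3, Ephb4 and Ephb6), 2 of 3 Slits, 2 of 4 Robos, 2 of 4 netrins, and all 5 of the Unc5 receptors and Dcc. Ephb2 was not analysed here.

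Across the 6 pools the levels of most guidance genes lay close together. Relative to the median gene of each array, the distance between a gene's highest and lowest pool was 0.13 to 1.07 with a median of 0.27, and over all 10916 tested genes the median was 0.28. The distance reached 1.5-fold in 4 of the 54 genes (7.41%), against 5.92% of all tested genes. Those 4 were Sema6c with 1.07, Sema3f with 0.94, the plexin Plxnb3 with 0.63 and the ephrin receptor Epha3 with 0.62. Plxnc1, a receptor of Sema7a, was the steadiest with 0.13, followed by Plxna1 with 0.14. In the deposited values, 43 of the 54 genes had their highest pool among the 3 arrays with the wider spread, as did 83.5% of all tested genes.

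**Figure D1:**
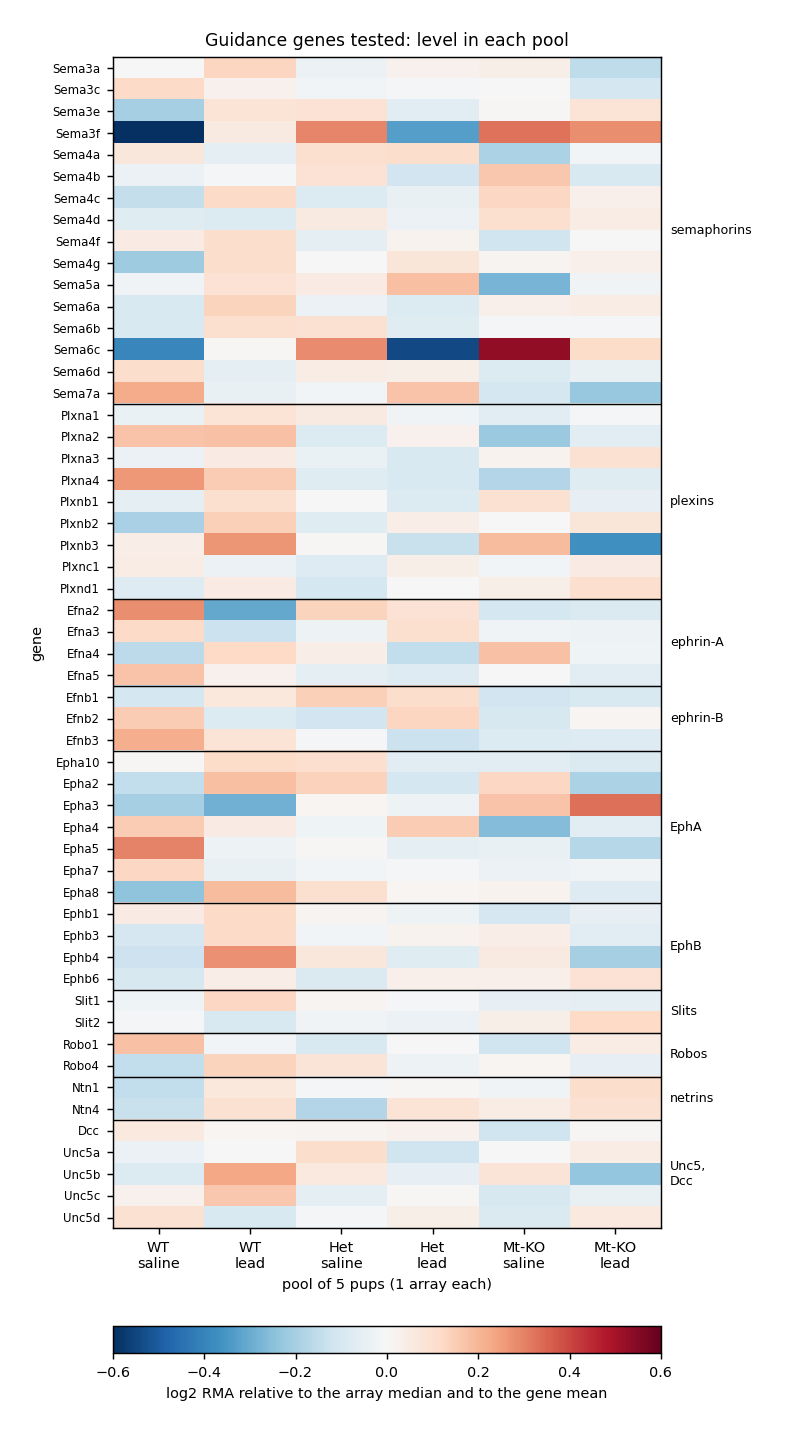
Level of each of the 54 tested guidance genes in the 6 pools, as log2 RMA value minus the median gene of that array and minus the gene's own mean over the pools (colour), with genes in rows by family. Values past the ends of the colour scale take the end colour. Most rows are pale, and the strongest colours lie in Sema3f, Sema6c, Plxnb3, Epha3 and Efna2, whose ranges over the pools were 0.94, 1.07, 0.63, 0.62 and 0.58.

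Promoters of 3 genes are shown, Sema6c and Epha3 from among the most variable, and Efna2, whose lead difference changed with genotype in one probe set. Metal-responsive transcription, which the factor Mtf1 drives, runs through metal response elements, whose core was searched here as TGCACNC or TGCGCNC on both strands. Each stretch is the 250 bases before a gene's start, from RefSeq on GRCm38.p6, read 5′ to 3′ along the gene's strand, with any core in capitals.
Efna2, chr10:80179232-80179481, + strand: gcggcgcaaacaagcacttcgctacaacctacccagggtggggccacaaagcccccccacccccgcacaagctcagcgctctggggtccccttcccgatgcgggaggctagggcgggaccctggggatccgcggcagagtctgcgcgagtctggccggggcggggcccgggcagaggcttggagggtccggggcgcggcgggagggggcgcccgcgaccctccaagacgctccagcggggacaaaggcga
Epha3, chr16:63864176-63864425, - strand: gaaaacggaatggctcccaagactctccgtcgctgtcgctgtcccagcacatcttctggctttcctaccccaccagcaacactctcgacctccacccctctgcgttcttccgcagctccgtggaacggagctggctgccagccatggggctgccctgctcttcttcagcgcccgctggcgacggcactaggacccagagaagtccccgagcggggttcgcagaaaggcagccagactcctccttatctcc
Sema6c, chr3:95160170-95160419, + strand: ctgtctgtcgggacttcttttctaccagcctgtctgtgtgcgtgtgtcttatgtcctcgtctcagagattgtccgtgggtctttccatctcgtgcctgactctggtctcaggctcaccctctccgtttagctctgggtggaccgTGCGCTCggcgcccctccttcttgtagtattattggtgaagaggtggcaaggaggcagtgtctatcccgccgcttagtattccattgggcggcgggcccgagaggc
Neither the Efna2 nor the Epha3 stretch holds these letters, and the Sema6c stretch, the 5′-most of its 2 promoters, holds 1 core, TGCGCTC. RefSeq promoter windows of 300 bases, 250 before to 50 after a start, matched 56 of the 67 genes in 72 windows. A core was in 24 of the 72 windows (33.3%), against 8444 of all 32851 (25.7%). At least 3 cores were in 0 guidance windows and in 1.97% of all, while the metallothionein genes Mt1 and Mt2 held 3 and 4. The matches describe the letters of these windows only.

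Lead acetate was first set against saline across the 3 genotypes. No guidance gene passed limma's test at an adjusted p of 0.05, and none had an unadjusted p under 0.05, where 0.119% of all tested genes passed and 1.53% had an unadjusted p under 0.05. The fitted differences of the 54 genes ran from -0.27 to 0.19 with a median of 0.03, against 0.02 over all tested genes, and their standard errors from 0.11 to 0.30. The smallest difference that passed for any gene was 0.47. Each guidance gene had an adjusted p of 1 for lead. GC-RMA and PLIER, the other 2 deposited summaries of the same arrays, also gave 0 guidance genes for lead. With either one of the wild-type arrays left out, 16 of the 54 passed (29.6%), 14 of them higher with lead, when 24.0% of all tested genes passed. That count rests on 1 residual degree of freedom.

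Among the ligands, both tested netrins had positive fitted differences with lead. Values are given for the saline and then the lead pool of each genotype. Ntn4, a netrin related to laminins and found in basement membranes, measured 10.59 and 10.63 in wild-type, 10.41 and 10.80 in heterozygous and 10.64 and 10.78 in Mt-KO brain. It was higher with lead in all 3 genotypes, and the fitted difference was 0.19 (SE 0.13; other probe set -0.02). Ntn1, the netrin that acts through Dcc, measured 10.08 and 10.11 in wild-type, 10.08 and 10.23 in heterozygous and 10.07 and 10.29 in Mt-KO brain, with a fitted difference of 0.13 (SE 0.12; other probe set 0.04). Its 3 saline pools lay within 10.07 to 10.08 and all 3 lead pools above them, the wild-type one only just.

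Semaphorins had fitted lead differences of both signs. Sema5a, a transmembrane semaphorin with thrombospondin repeats, measured 11.17 and 11.10 in wild-type, 11.10 and 11.36 in heterozygous and 10.78 and 11.13 in Mt-KO brain. Relative to the median gene its differences were 0.11, 0.11 and 0.26, and the fitted difference was 0.18 (SE 0.14; other probe sets 0.07, -0.05 and 0.05). Sema4g, a class 4 transmembrane semaphorin, measured 12.51 and 12.64 in wild-type, 12.57 and 12.78 in heterozygous and 12.60 and 12.71 in Mt-KO brain, with a fitted difference of 0.15 (SE 0.19). Sema4b, of the same class, measured 9.90 and 9.74 in wild-type, 9.87 and 9.81 in heterozygous and 9.96 and 9.80 in Mt-KO brain, and its fitted difference was -0.13 (SE 0.12; other probe set 0.06). The lead pools of Sema4g were all above its saline pools and those of Sema4b all below. Sema6c, a class 6 transmembrane semaphorin, measured 12.42 and 12.64 in wild-type, 12.95 and 12.26 in heterozygous and 13.21 and 12.88 in Mt-KO brain. It was higher with lead in wild-type brain and lower in the other 2 genotypes, relative to the median gene by 0.40, -0.84 and -0.42, so that the fitted difference of -0.27 (SE 0.19; other probe sets -0.03 and 0.02) averages over opposite directions and is 0.10 in PLIER.

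Of the ephrin ligands and Slits, Efna2 had the largest fitted size with lead. Efna2, a lipid-anchored ephrin, measured 10.41 and 9.64 in wild-type, 10.12 and 10.21 in heterozygous and 9.90 and 10.01 in Mt-KO brain. The wild-type lead pool stood below the other 5, and the fitted difference was -0.19 (SE 0.12; other probe set 0.13), which turned to 0.10 without either one of the wild-type arrays. Efnb1, an X-linked transmembrane ephrin, measured 10.55 and 10.54 in wild-type, 10.66 and 10.75 in heterozygous and 10.41 and 10.53 in Mt-KO brain, with a fitted difference of 0.07 (SE 0.13; other probe sets 0.24 and 0.05). Slit1, a repellent for forebrain axons, measured 11.01 and 10.98 in wild-type, 10.91 and 11.02 in heterozygous and 10.86 and 10.94 in Mt-KO brain, with a fitted difference of 0.05 (SE 0.13; other probe set -0.04).

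Of the receptors, Plxnb2 had the highest fitted difference with lead. Plxnb2, a receptor for class 4 semaphorins that is prominent in cerebellar granule cell precursors, measured 12.05 and 12.21 in wild-type, 12.03 and 12.28 in heterozygous and 12.12 and 12.28 in Mt-KO brain, with a fitted difference of 0.19 (SE 0.17). The 3 lead pools lay above the 3 saline pools, from 12.21 to 12.28 against 12.03 to 12.12. Plxnd1, the receptor of Sema3e and a plexin of blood vessels, measured 11.09 and 11.03 in wild-type, 10.92 and 11.16 in heterozygous and 11.07 and 11.23 in Mt-KO brain, with a fitted difference of 0.11 (SE 0.14). Plxnb3, an X-linked receptor of Sema5a, measured 11.07 and 11.11 in wild-type, 10.89 and 10.88 in heterozygous and 11.08 and 10.62 in Mt-KO brain. Its fitted difference of -0.14 (SE 0.13; other probe set 0.00) came from the Mt-KO pair, where the lead pool was lower by 0.56 relative to the median gene. In that pair the other probe set was at -0.07. Xist was also lower and Eif2s3y higher in the Mt-KO lead pool. The part of the sex makeup of the pools in the Plxnb3 value was not tested.

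The named Eph, Robo and Unc5 receptors had fitted lead differences no larger than their standard errors or close to them. Epha5, a kinase abundant in neurons, measured 12.31 and 11.80 in wild-type, 11.88 and 11.95 in heterozygous and 11.83 and 11.80 in Mt-KO brain, with a fitted difference of -0.16 (SE 0.16; other probe sets -0.07, -0.01 and 0.00). Its wild-type saline pool stood above the other 5, which lay within 11.80 to 11.95. Ephb6, a receptor whose kinase domain is inactive, measured 10.97 and 10.92 in wild-type, 10.83 and 11.09 in heterozygous and 10.96 and 11.11 in Mt-KO brain, with a fitted difference of 0.12 (SE 0.13). Unc5c, a netrin receptor of cerebellar granule cells and their precursors, measured 11.52 and 11.48 in wild-type, 11.30 and 11.49 in heterozygous and 11.27 and 11.41 in Mt-KO brain, with 0.10 (SE 0.14; other probe set 0.22). Robo4, the endothelial Robo, measured 9.37 and 9.46 in wild-type, 9.45 and 9.47 in heterozygous and 9.39 and 9.43 in Mt-KO brain, with 0.05 (SE 0.11), which turns to -0.33 in GC-RMA and -0.04 in PLIER.

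Relative to the median gene, 13 of the 54 genes had the same sign in all 3 lead pairs, 24.1%, against 22.4% of all tested genes. Ephb6, Ntn4, Plxna2, Plxnb2, Plxnd1, Sema4f, Sema4g, Sema5a and Unc5c were above it in each pair, and 11.5% of all genes were. Efna5, Epha5, Sema3c and Sema4d were below it in each pair, as were 10.9% of all genes. As deposited, the lead pools were all above the saline pools in 4 genes, Ntn1, Plxnb2, Sema4g and Sema6a (7.41%, against 3.86% of all), and all below in Sema4b alone (1.85%, against 1.41%). A difference of at least 1.5-fold within a pair was found in 0 to 2 guidance genes in RMA. Shares of all genes at this limit are for RMA only, so the GC-RMA and PLIER counts have none beside them. In wild-type brain Sema3f reached it in RMA, with 0.67, where 1.64% of all tested genes did, while 5 guidance genes did in GC-RMA and 4 in PLIER. In heterozygous brain Sema3f with -0.64 and Sema6c with -0.84 did, against 0.44% of all genes, both in the opposite direction to wild-type, and 4 did in PLIER. In Mt-KO brain no guidance gene did, against 0.311%, where GC-RMA and PLIER each gave 1.

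Markers of cell types and regions differed from the median gene in the same comparisons. Of 20 cerebellar genes, 13 were tested and all 13 were above the median gene with lead in the fit, and their median by genotype was 0.64 in wild-type, 0.24 in heterozygous and 0.24 in Mt-KO brain. Astrocyte genes had a median of 0.19, with 10 of 10 above. Myelin genes had a median of 0.42 in the wild-type pair and -0.11 in the heterozygous pair. The endothelial list, relevant to Robo4, Plxnd1 and Unc5b, was at -0.05 with 2 of 8 above. The part of regional and cell makeup in the guidance values was not tested. The pituitary hormone Gh was at 11.48 in heterozygous brain with lead, against 9.29 to 9.83 in the remaining 5 pools.

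**Figure D2:**
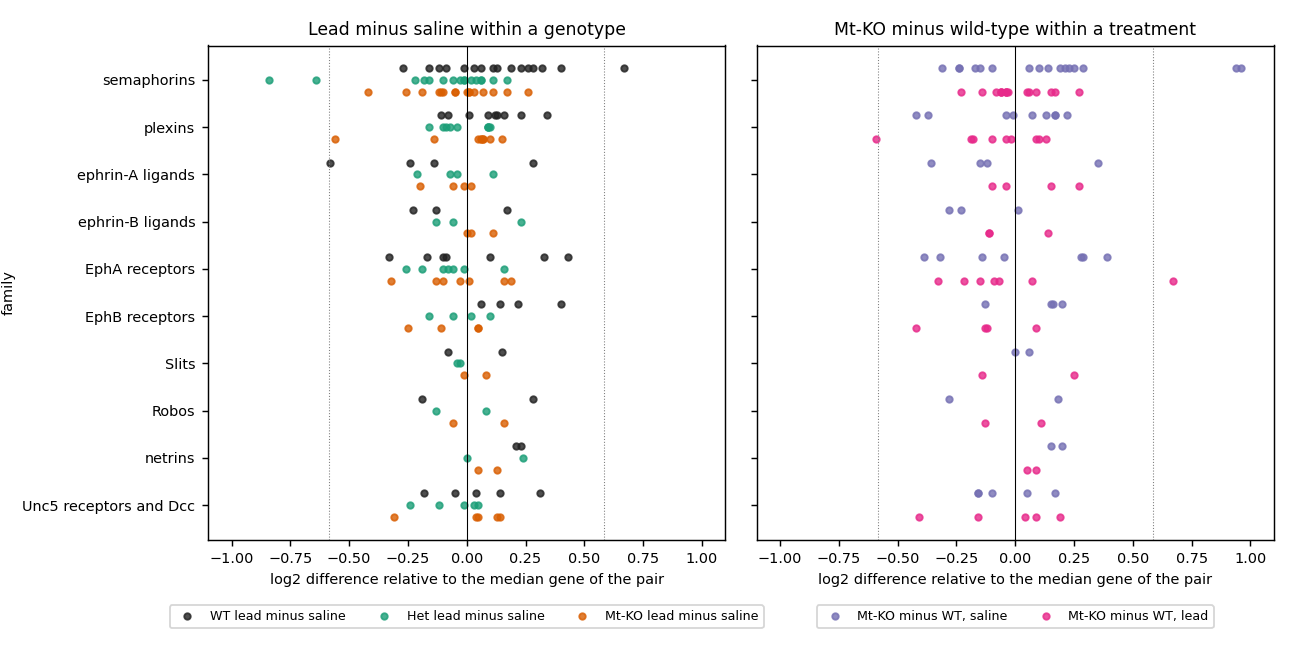
Difference between 2 pools for each of the 54 tested guidance genes (1 point per gene, log2, after taking off the median gene's difference), by family, for lead minus saline within each genotype (left) and Mt-KO minus wild-type within each treatment (right). Dotted lines mark 1.5-fold. Nearly all points lie between them, and the outlying points are Sema3f and Sema6c in the semaphorin row, Plxnb3 in the plexin row and Epha3 in the EphA row.

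The Mt-KO genotype was set against wild-type with both treatments in the fit. No guidance gene passed limma's adjusted p of 0.05, where 0.431% of all tested genes did, and 2 of the 54 had an unadjusted p under 0.05 (3.7%, against 3.5% of all). GC-RMA gave 0 guidance genes and PLIER 1, Ephb4. The fitted differences ran from -0.33 to 0.59 with a median of -0.05, against -0.03 over all tested genes, with standard errors of 0.13 to 0.37. The smallest difference that passed for any gene was 0.51. Without the wild-type lead array, 24 of the 54 passed, 3 of them higher, when 40.1% of all genes did. Without the wild-type saline array, 10 passed, 8 of them higher, when 22.3% of all genes did. As deposited, both Mt-KO pools were above the other 4 in Epha3, Sema3f, Sema4c and Sema4d (7.41%, against 4.61% of all genes) and below them in Efnb1, Epha10 and Sema7a (5.56%, against 6.97%).

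Epha3 came nearest to the threshold. Epha3, an ephrin-A receptor that sorts axons in the visual and other maps, measured 10.01 and 9.73 in wild-type, 10.07 and 10.16 in heterozygous and 10.24 and 10.50 in Mt-KO brain. Both Mt-KO pools were above all 4 others, and the difference from wild-type relative to the median gene was 0.39 with saline and 0.67 with lead. The fitted difference was 0.50 (SE 0.15), with an unadjusted p of 0.000706 and an adjusted p of 0.117 in limma. GC-RMA gave 0.55 and PLIER 0.54. It was 0.72 without the wild-type saline array and 0.28 without the wild-type lead array. Both values passed, but in fits with a single wild-type array and 1 residual degree of freedom, in which 22.3% and 40.1% of all genes passed. The other 3 Epha3 probe sets gave 0.29, 0.42 and 0.02. The heterozygous value was 0.25 (SE 0.15; other probe sets 0.11, 0.26 and 0.15), between the other genotypes.

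The 2 largest fitted differences were those of Sema3f and Sema6c, and both were uneven between treatments. For Sema6c the Mt-KO pool exceeded its wild-type counterpart by 0.94 with saline and 0.15 with lead, relative to the median gene. The fitted difference was 0.52 (SE 0.23), with an unadjusted p of 0.0279 and an adjusted p of 1. It was 0.15 without the wild-type saline array and 0.88 without the wild-type lead array. Only the latter passed, in the fit in which 40.1% of all genes did. Sema3f, a secreted semaphorin that repels through neuropilin-2, measured 13.57 and 14.06 in wild-type, 14.34 and 13.85 in heterozygous and 14.38 and 14.43 in Mt-KO brain. Its wild-type saline pool was the lowest of the 6, and the Mt-KO differences were 0.96 with saline and 0.27 with lead. The fitted difference was 0.59 (SE 0.37). The probe set read for Sema3f belongs to a class that can cross-hybridise with other transcripts, as do those read for Sema4a and Sema4f. The other 2 Sema3f probe sets gave 0.13 and 0.47. Those of Sema6c gave 0.11 and -0.07.

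The other semaphorins and the ephrin, Slit and netrin ligands lay nearer to wild-type. Sema7a, a lipid-anchored semaphorin, measured 12.12 and 11.67 in wild-type, 11.73 and 12.05 in heterozygous and 11.65 and 11.63 in Mt-KO brain, with a fitted Mt-KO difference of -0.25 (SE 0.19; other probe set 0.23). Sema5a was lower by 0.24 with saline and 0.06 with lead relative to the median gene, with -0.18 (SE 0.17; other probe sets 0.18, 0.00 and -0.22) in the fit. Sema4d, a ligand of Plxnb1 made by myelinating cells, measured 10.43 and 10.24 in wild-type, 10.41 and 10.46 in heterozygous and 10.47 and 10.51 in Mt-KO brain, with 0.15 (SE 0.15; other probe sets -0.02 and 0.06). Both its Mt-KO pools were above the wild-type pool of the same treatment. Efnb3, an ephrin of the spinal cord midline, measured 12.87 and 12.55 in wild-type, 12.50 and 12.52 in heterozygous and 12.44 and 12.53 in Mt-KO brain, with -0.23 (SE 0.22). Efna5, a ligand that repels retinal axons in the midbrain, measured 11.61 and 11.28 in wild-type, 11.24 and 11.35 in heterozygous and 11.30 and 11.34 in Mt-KO brain, with -0.12 (SE 0.17; other probe set -0.08). The wild-type saline pool of Efna5 and Efnb3 was the highest of the 6. Slit2, the repellent of the ventral midline, measured 11.42 and 11.16 in wild-type, 11.27 and 11.39 in heterozygous and 11.33 and 11.51 in Mt-KO brain, with 0.13 (SE 0.17; other probe sets 0.05 and 0.24), and Ntn4 was at 0.10 (SE 0.16; other probe set 0.12).

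Of the 9 tested plexins, 5 were above the median gene for Mt-KO, with a median of 0.01. Plxna4, a receptor for class 3 semaphorins, measured 12.08 and 11.79 in wild-type, 11.61 and 11.72 in heterozygous and 11.51 and 11.71 in Mt-KO brain, and the fitted difference of -0.33 (SE 0.19; other probe set -0.01) was the lowest among the 54 genes. Plxna2, of the same receptor class, measured 12.73 and 12.55 in wild-type, 12.33 and 12.57 in heterozygous and 12.20 and 12.45 in Mt-KO brain, with -0.31 (SE 0.22; other probe sets -0.19, -0.72 and -0.05). Epha4, a receptor that binds both ephrin classes, measured 12.47 and 12.19 in wild-type, 12.15 and 12.46 in heterozygous and 11.93 and 12.21 in Mt-KO brain, with -0.26 (SE 0.21; other probe sets 0.35, -0.31, -0.53 and -0.24), and Epha5 was at -0.24 (SE 0.19; other probe sets -0.14, -0.28 and -0.01). None of these 4 passed. Without the wild-type saline array Epha4 and Epha5 were both at 0.03. In each of the 4 genes the wild-type saline pool was the highest of the 6, as in 41.6% of all tested genes. The 10 neuronal marker genes were all below the median gene in the same fit, with a median of -0.35, and by pair their median was -0.46 with saline and -0.22 with lead. These markers were bright, with a mean level of 13.39 to 13.96 by pool, against 10.87 to 11.05 for the median tested gene. Over all genes, Spearman's correlation of Mt-KO minus wild-type with brightness was -0.50 with saline and -0.03 with lead. The parts of brightness and of the neuronal share of RNA in the marker and receptor values were not tested.

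Plxnb3 was lower in the Mt-KO lead pool than in the wild-type lead pool by 0.59 relative to the median gene but higher by 0.17 with saline, and its fitted difference was -0.24 (SE 0.16; other probe set 0.20). Between the lead pools the other probe set was at 0.10, and between the saline pools at 0.36. The 11 tested myelin genes had a median of -0.23 in the lead pools of the same 2 genotypes and -0.03 in the saline pools. In some other pairs the myelin median and Plxnb3 had opposite signs. They were at 0.15 and -0.56 for Mt-KO lead minus saline, and at -0.52 and 0.19 for Mt-KO minus heterozygous with saline. For Mt-KO minus heterozygous with lead they were at -0.23 and -0.20. The part of myelinating cells in the Plxnb3 value was not tested. Ephb4, a receptor of venous endothelium, measured 10.60 and 10.82 in wild-type, 10.65 and 10.64 in heterozygous and 10.65 and 10.49 in Mt-KO brain, with -0.14 (SE 0.16) in RMA, 0.01 in GC-RMA and 1.11 in PLIER. Its PLIER value alone passed the test, and no direction is given for it. Unc5b, a netrin receptor of blood vessels, measured 10.46 and 10.59 in wild-type, 10.46 and 10.48 in heterozygous and 10.48 and 10.27 in Mt-KO brain, with -0.15 (SE 0.15; other probe set -0.05). Robo1, a Slit receptor of migrating neurons and axons, measured 12.22 and 11.85 in wild-type, 11.81 and 12.04 in heterozygous and 11.80 and 12.05 in Mt-KO brain, with -0.11 (SE 0.19; other probe sets -0.13 and -0.12). Robo1 and Unc5b differed in sign between the saline and the lead pair.

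At least 1.5-fold from the median gene, Sema3f and Sema6c differed between Mt-KO and wild-type saline pools, where 3.02% of all genes did, and Epha3 and Plxnb3 between the lead pools, where 0.843% did. GC-RMA gave 5 guidance genes and PLIER 4 with saline, and GC-RMA gave 4 with lead. The shares of all genes in these comparisons are again for RMA only. Between the heterozygous and wild-type saline pools it was again Sema3f with 0.93 and Sema6c with 0.69 (1.31% of all genes), with 5 in GC-RMA and 4 in PLIER, and between their lead pools 0 guidance genes (0.504%), with 1 in GC-RMA and 3 in PLIER. Mt-KO and heterozygous brain differed by that much in 0 guidance genes with saline (0.275%), 1 in each other summary, and with lead in Sema3f with 0.65 and Sema6c with 0.69 (0.403%).

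Heterozygous brain was compared with the same 2 wild-type arrays as Mt-KO brain. No guidance gene passed limma's test or had an unadjusted p under 0.05, where 0.119% of all genes passed and 1.2% had an unadjusted p under 0.05, and neither GC-RMA nor PLIER gave any. The fitted differences ran from -0.28 to 0.28 with a median of 0.00, as over all tested genes, and every adjusted p was 1. Beside Epha3, the values were -0.28 (SE 0.19; other probe set -0.16) for Plxna4, -0.20 (SE 0.16; other probe set 0.18) for Plxnb3 and -0.20 (SE 0.22) for Efnb3, all toward lower levels. Efnb1 was at 0.16 (SE 0.16; other probe sets 0.16 and -0.11) and Efna2 at 0.14 (SE 0.15; other probe set 0.01). Without the wild-type lead array 15 of the 54 passed, 2 of them higher, and without the wild-type saline array 12 passed, 11 of them higher, when 22.2% and 24.1% of all genes did.

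The last comparison asked whether the difference with lead changed with the number of intact alleles, 2 in wild-type, 1 in heterozygous and 0 in Mt-KO brain. The fit took this change as linear, the same for each allele. Efna2 alone passed limma's test, 1 of 54 (1.85%), where 3.77% of all tested genes passed, 3.34% toward lower and 0.431% toward higher values per allele. An unadjusted p under 0.05 was found in 9 of the 54 (16.7%, against 20.1% of all). The median gene itself changed by -0.15 per allele, and the 54 genes by a median of -0.10, from -0.44 to 0.27. Efna2 changed by -0.44 (SE 0.11) per intact allele, with an adjusted p of 0.00607. Its lead minus saline difference relative to the median gene was -0.58, -0.07 and 0.02 in wild-type, heterozygous and Mt-KO brain, so the size lay in the wild-type pair. Without the wild-type lead array the value was -0.06, without the wild-type saline array -0.41 and without the Mt-KO saline array -0.47, none of which passed. With arrays centred on their median gene it was -0.30 with an adjusted p of 0.147, and GC-RMA gave -0.28 with an adjusted p of 0.514.

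The promoter stretch of Efna2 held no core of a metal response element. The second probe set of Efna2 did not follow the first. It measured 9.45 and 9.79 in wild-type, 9.66 and 9.60 in heterozygous and 9.61 and 9.71 in Mt-KO brain, and gave 0.12 per allele. In it the wild-type saline pool was the lowest of the 6, whereas in the brighter probe set it was the highest. Across the 37 tested guidance genes with more than 1 probe set, the second brightest lay on the same side of the median gene as the brightest in 21 for lead, 16 for Mt-KO, 20 for heterozygous and 25 for the change per allele. The same count over all genes was not made.

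**Figure D3:**
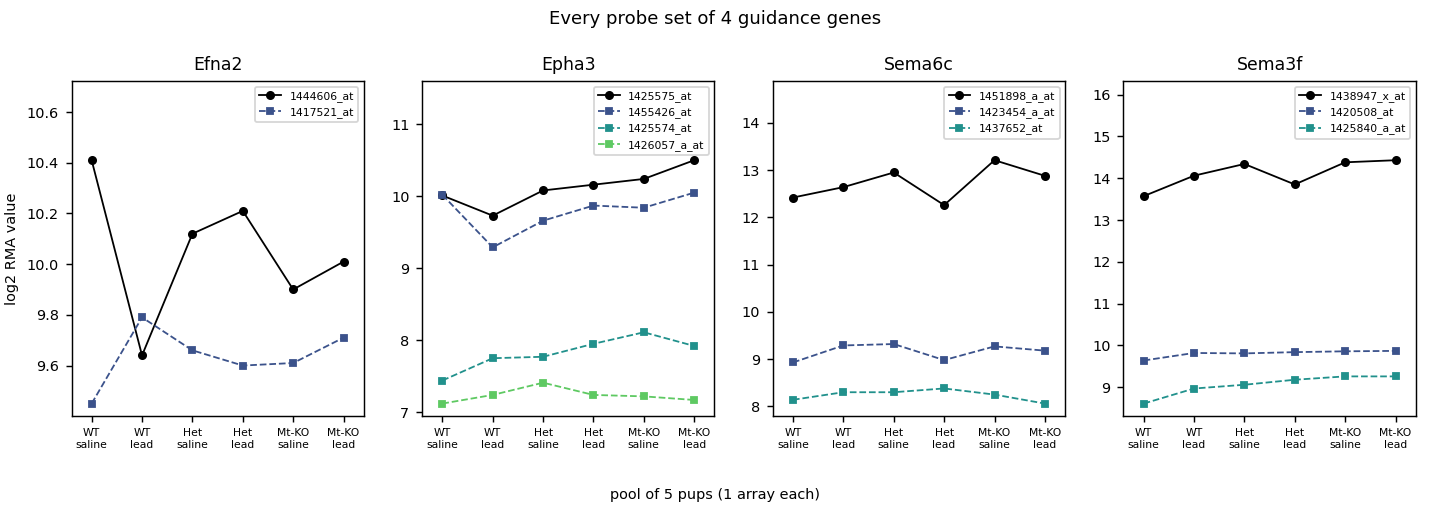
Every probe set of Efna2, Epha3, Sema6c and Sema3f (1 line each, the brightest solid black and the others dashed) in the 6 pools, as deposited log2 RMA values, with a vertical axis of its own in each panel. The 2 Efna2 probe sets part in the wild-type pools, and the dimmer Sema6c and Sema3f probe sets cover a smaller range than the brightest.

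The other genes named for the change per allele did not pass. Unc5d, an Unc5 receptor of cortical neurons, measured 11.46 and 11.09 in wild-type, 11.21 and 11.39 in heterozygous and 11.15 and 11.38 in Mt-KO brain, with -0.30 (SE 0.12) per allele and an adjusted p of 0.141. Efnb2, a ligand of Ephb4 and of arteries, measured 11.99 and 11.58 in wild-type, 11.58 and 11.96 in heterozygous and 11.61 and 11.81 in Mt-KO brain, with -0.31 (SE 0.13; other probe sets -0.26, 0.08 and -0.01) and an adjusted p of 0.160. Both genes lie on chromosome 8, which also carries Mt1, at 65.0 and 85.5 Mb from it (GRCm38.p6). Sema4a, a class 4 semaphorin, measured 11.52 and 11.22 in wild-type, 11.41 and 11.55 in heterozygous and 11.13 and 11.40 in Mt-KO brain, with -0.29 (SE 0.12; other probe set -0.08) and an adjusted p of 0.167. Robo1 was at -0.32 (SE 0.14; other probe sets -0.30 and 0.04), with an adjusted p of 0.167, and Epha3 at -0.26 (SE 0.11; other probe sets -0.47, 0.25 and 0.09), with an adjusted p of 0.155. In all 5 genes the lead minus saline difference was below the median gene in wild-type and above it in Mt-KO brain. The genes were named for the size of their change per allele, so this pattern largely restates how they were picked. Its share over all genes was not counted.

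Differences between pools moved with brightness. Over the 54 guidance genes, Spearman's correlation of the lead minus saline difference with a gene's mean level was -0.30 in wild-type, 0.35 in heterozygous and 0.30 in Mt-KO brain. Over all 10916 tested genes it was -0.28, 0.45 and 0.36. For Mt-KO minus wild-type it was -0.43 with saline and 0.20 with lead over the guidance genes, and -0.50 and -0.03 over all genes. The genes of a pair share the same 2 arrays, so these correlations across genes only describe those arrays. The Gapdh 3' minus 5' probe set difference, which rises with RNA breakdown or with shorter labelled product, was 1.19 in the wild-type saline pool and 0.54 to 0.82 in the others. The part of array spread and RNA state in the differences was not tested.

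**Figure D4:**
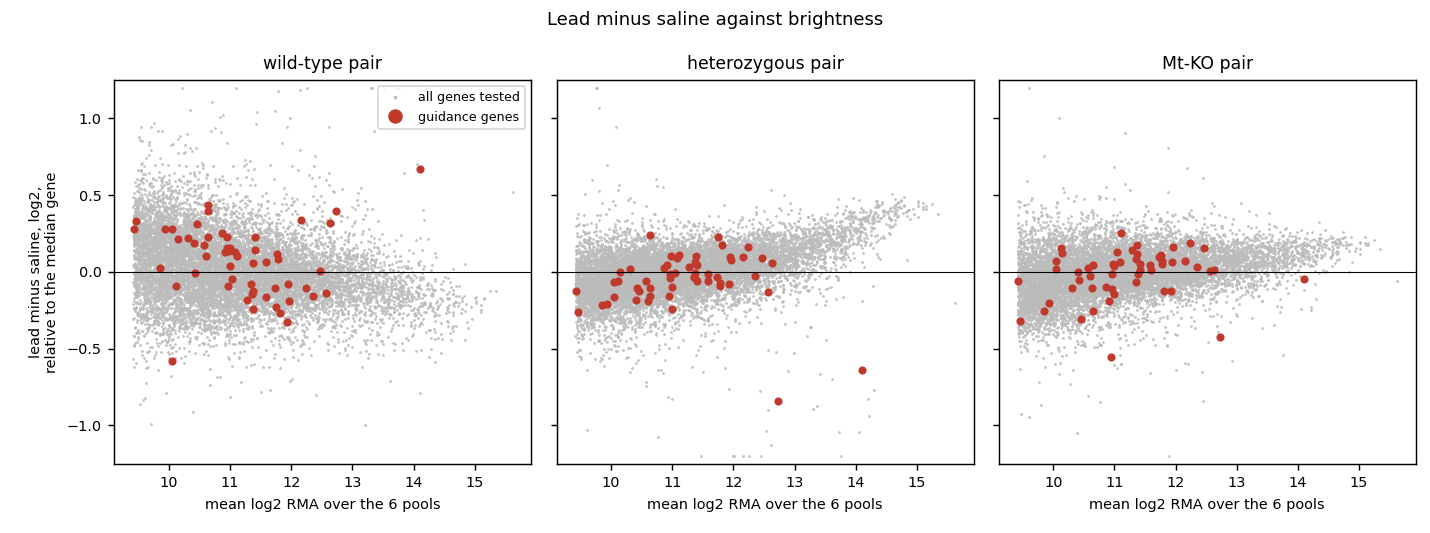
Lead minus saline difference against mean log2 RMA level for all 10916 tested genes (grey) and the 54 tested guidance genes (red points) in wild-type, heterozygous and Mt-KO brain. The cloud tilts down in wild-type and up in the other 2 genotypes, with correlations of -0.28, 0.45 and 0.36 over all genes, and most guidance genes lie within it. Sema3f and Sema6c lie below it in heterozygous brain, at -0.64 and -0.84, and differences past the axis limits are drawn at the edge.

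Co-receptors and intracellular effectors of the same pathways were read from 2 further lists. All 20 co-receptors and related guidance proteins were tested, and 36 of 41 effectors. None of the 56 passed limma's test for lead, Mt-KO or heterozygous brain, with 0 in GC-RMA and PLIER as well, where 0.119%, 0.431% and 0.119% of all genes passed. An unadjusted p under 0.05 was found in 0, 2 and 0 of them, against 1.53%, 3.5% and 1.2% of all genes. With lead, 27 of 36 effectors and 11 of 20 co-receptors were above the median gene. Nrp1, the co-receptor of class 3 semaphorins, was at 0.19 with lead, Rhoa, a GTPase that contracts the growth cone, at 0.23 and Kalrn, an exchange factor for Rac, at -0.19. Ntng1, a lipid-anchored netrin relative, was at -0.26, Dscaml1 and Rnd1 both at -0.12, the adaptor Nck2 at 0.13 and the adhesion molecule Cntn2 at 0.18. In Mt-KO brain 13 of 36 effectors and 6 of 20 co-receptors were above the median gene. Cfl1, an actin-severing protein, was at -0.47, the cell adhesion molecule L1cam at -0.45, the GTPase Rac1 at -0.43 and Neo1, a Dcc relative, at -0.37. Flrt1 was at -0.37, the kinase Fyn at -0.29 and Kalrn at -0.22, whereas Cntn2 was at 0.34. Each had an adjusted p of 1.

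For the change per intact allele, 1 of the 56 passed, Rock1, a kinase downstream of Rhoa. Rock1 measured 11.05 and 10.50 in wild-type, 10.64 and 10.95 in heterozygous and 10.50 and 10.79 in Mt-KO brain. It changed by -0.42 (SE 0.12) per allele, with an adjusted p of 0.0168. Over all tested genes 3.77% passed. With GC-RMA, with PLIER or with centred arrays 0 of the 56 passed.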

How the data were processed

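Labelled RNA of 6 brain pools was hybridised to 6 one-colour arrays, and 45101 probe sets were read. The authors deposited each array in 3 summaries: RMA and GC-RMA values, read here as log2 from their range, and PLIER values, read from their range as linear intensity, with Partek, RMA, GCRMA and PLIER named in the submitters' processing notes. The 18 deposited columns are thus 6 arrays. Their number limits the precision. Versions and background settings were not given in the sources used here.

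RMA was the main summary, and PLIER entered as log2(intensity + 16). Of the probe sets, 34958 had 1 gene symbol in the platform annotation, 932 several and 9211 none, and only the first kind was used. The brightest probe set by mean RMA stood for each of 18194 genes, and the upper 60% (10916) were tested. limma 3.58.1 (R 4.3.3) fitted genotype plus treatment, and separately treatment by number of intact alleles as a linear term. Both fits used an intensity trend and Benjamini-Hochberg adjustment over all tested genes. Each fit leaves 2 residual degrees of freedom, and limma gave every gene the spread typical of its brightness. The scripts were tested on simulated data.

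Genes are named by the size of their limma statistic: those that passed, the 12 largest for lead and for Mt-KO, the 6 largest for heterozygous and for the change per allele, and the largest of each family for lead and Mt-KO. Of each of the 2 lists of other guidance genes, the 4 largest for lead and for Mt-KO are named. The genes and lists were chosen with earlier results of these data known. The lists cover guidance co-receptors, guidance effectors and markers of brain cell types and regions. Alternatives were the other summaries, quantile normalization, centring of arrays, other brightness limits, averaging all probe sets of a gene, no trend and leaving out arrays or pairs. Promoter sequences are RefSeq's, GRCm38.p6.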

Additional observations from a re-analysis of the deposited data

Results flagged for a closer look

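Efna2 passed the test of whether the difference with lead changed linearly with the number of intact alleles. It changed by -0.44 (SE 0.11) per intact allele, with an adjusted p of 0.00607 in limma's fit across 10916 genes, of which 3.77% passed and whose median was -0.15 per allele. With arrays centred on the median gene the value was -0.30 with an adjusted p of 0.147, and in GC-RMA -0.28 with an adjusted p of 0.514, so the call was lost in both. The lead minus saline difference relative to the median gene was -0.58 in wild-type, -0.07 in heterozygous and 0.02 in Mt-KO brain. The second Efna2 probe set gave 0.12 per allele. Each genotype has 1 pool per treatment, so the difference has no replicate check.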

How the results depend on the processing

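Counts of guidance genes past the threshold stayed at 0 for lead, Mt-KO and heterozygous brain under quantile normalization, centred arrays, both other brightness limits, the mean over probe sets and no trend, and under GC-RMA and PLIER except for 1 gene, Ephb4, for Mt-KO in PLIER. For the change per allele the count of 1 was 0 under GC-RMA, quantile normalization, centred arrays, no brightness limit, the upper 40%, the mean over probe sets and no trend, and 3 in PLIER (Efna2, Ephb4 and Sema6c). The share of all genes that passed the change per allele was 3.77% in the main fit. It is not given for these other settings. Counts from leaving out arrays or pairs are of 54 guidance genes and 56 other guidance genes. In the fits with the highest counts, many of all tested genes passed too. The shares were 24.0% to 24.1% for lead, 40.1% for Mt-KO, 22.2% for heterozygous brain and 9.43% for the change per allele. High counts in such fits are therefore not by themselves a result about guidance genes. Leaving out arrays or pairs gave 0 to 16 for lead, 0 to 24 for Mt-KO, 0 to 15 for heterozygous and 0 to 6 for the change per allele. For the other guidance genes it gave 0 to 16, 0 to 32, 0 to 17 and 0 to 3, and their count of 1 for the change per allele was 0 under GC-RMA, PLIER, quantile normalization, centred arrays, no brightness limit and no trend and 2 (Flrt2 and Rock1) with the mean over probe sets.

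In the pairs listed here, counts at 1.5-fold were larger under the other summaries than in RMA. The share of all tested genes at 1.5-fold is given for RMA only. Whether the larger counts are particular to guidance genes was therefore not tested. Counts for the remaining pairs are not listed. For lead minus saline they were 5 in GC-RMA and 4 in PLIER in wild-type, 4 in PLIER in heterozygous, and 1 in each in Mt-KO brain. For heterozygous minus wild-type they were 5 and 4 with saline and 1 and 3 with lead. For Mt-KO minus wild-type they were 5 and 4 with saline and 4 in GC-RMA with lead, and for Mt-KO minus heterozygous with saline 1 and 1.

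Of 46 named values, 17 changed sign somewhere and 5 of these under a setting other than leaving out arrays. Other brightness limits, no trend and no genotype block leave a gene's fitted value unchanged, so no sign could turn under them. With lead, Efnb1 was 0.00 in GC-RMA, Robo4 -0.33 in GC-RMA and -0.04 in PLIER, and Sema6c 0.10 in PLIER. For Mt-KO, Ephb4 was 0.01 in GC-RMA and 1.11 in PLIER, and Ntn4 -0.01 in GC-RMA. Over the fits that left out an array or a pair, lead values ran from -0.34 to 0.10 for Efna2, -0.27 to 0.02 for Epha5 and -0.24 to 0.02 for Plxnb3. Mt-KO values ran from -0.32 to 0.08 for Efna5, -0.55 to 0.03 for Epha4, -0.50 to 0.03 for Epha5, -0.29 to 0.01 for Ephb4, -0.01 to 0.21 for Ntn4, -0.48 to 0.00 for Plxnb3, -0.42 to 0.20 for Robo1, -0.37 to 0.01 for Sema5a, -0.55 to 0.05 for Sema7a and -0.08 to 0.34 for Slit2. The heterozygous value of Efna2 ran from -0.29 to 0.57. The causes were not tested.

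With 1 pool per combination the spread between pups is unmeasured. Leaving out a wild-type array gave the highest counts for lead, Mt-KO and heterozygous brain. Standard errors of the guidance genes were 0.11 to 0.30 for lead and 0.13 to 0.37 for Mt-KO and heterozygous brain, and limit what could be called. The lead fit pairs the pools by genotype, and without the genotype block 0 guidance genes passed. Each genotype has 1 lead and 1 saline pool, so the fitted lead values are the same without that block. Their direction could not change.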
